A study of Mus musculus with 16 samples.

Results

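The clustered histone genes were followed through the last nucleated steps of red cell formation in mouse bone marrow. They were defined as the genes of the deposited counts whose symbol starts with Hist1h, Hist2h, Hist3h or Hist4h and whose counts summed to at least 10 over the 16 libraries. Of 71 such genes, 56 met this minimum, out of 46078 genes listed in all and 13318 with at least 10 counts. They comprised 5 genes of the linker histone H1 and 51 core histone genes, namely 14 of H2A, 16 of H2B, 9 of H3 and 12 of H4. Classes were set by symbol, so H2A includes Hist1h2aj and H2B includes Hist3h2bb-ps, both annotated in GENCODE M21 as pseudogenes. H2B also includes Hist2h2bb, annotated there with a long noncoding transcript. The Hist1 cluster on chromosome 13 held 47 of them, the Hist2 cluster on chromosome 3 held 5, the Hist3 cluster on chromosome 11 held 3, and Hist4h4 on chromosome 6 stood alone. Of the 15 genes below the minimum, 8 had 0 counts and 7 had 1 to 9. The gene just below it was Hist2h3c2 with 9 counts, and the gene just inside it was Hist2h2ab with 12.

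RNA was sequenced from polychromatic erythroblasts (Poly-E) and the orthochromatic erythroblasts (Ortho-E) that follow them, the last stage before the nucleus is expelled. Cells were sorted from steady-state bone marrow by the erythroid antigen Ter119 and by CD44, with dead cells left out. The 4 groups were Ypel4+/+ Poly-E, Ypel4-/- Poly-E, Ypel4+/+ Ortho-E and Ypel4-/- Ortho-E, with 4 libraries each. Homozygous mutants carried the trap allele Ypel4<tm1a(EUCOMM)Wtsi>/WtsiIeg on a C57BL/6N-A<tm1Brd> background, an allele present in all cells and not in the erythroid lineage alone, and their controls were wild-type. The labels used here give no age.

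Histones package DNA. A nucleosome is a spool of H2A, H2B, H3 and H4 around which DNA is wound, and H1 binds the DNA where it enters and leaves the spool and helps fibres to pack. Clustered histone genes are known for their expression during S phase and for transcripts that end in a conserved stem-loop, bound by SLBP, instead of a poly(A) tail. Some of them are also known to give polyadenylated transcripts in cells that leave the cycle, by using a signal downstream of the stem-loop. The libraries were made with a kit that selects polyadenylated RNA, so the counts describe those histone transcripts that were carried through such a selection, not all histone mRNA.

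The stem-loop was therefore located in the annotated transcripts. A 16-base motif written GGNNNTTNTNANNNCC, read in the sense direction after the stop codon and required to form at least 5 of its 6 stem pairs, was found in 36 of the 56 members. For other protein-coding genes the whole transcript was searched, without the condition on the stop codon. There the motif was found in 402 of 21836 genes (1.84%), so the 2 searches differ in their criterion. In the remaining 20 members, Hist1h2bc and Hist2h2be among them, no motif met these conditions in GENCODE M21 transcripts. Transcripts without an annotated stop codon were not searched, and for 2 of the members no transcript was matched. Among the 36 there were 8 distinct stem-loops, and one of them, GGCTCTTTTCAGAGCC, was shared by 18 members of H1, H2A, H2B and H3. All 25 stem-loops outside H4 started with GGCTC and 10 of the 11 in H4 started with GGCCC. The stretches below are shown because these members carry the results that follow, either by their counts or by the size of their change. Each is given 5′ to 3′ on the transcribed strand from GENCODE M21 transcripts, and the capitals mark the stem-loop, whose position is given on GRCm38.
Hist1h1c (chr13:23739512-23739527, + strand): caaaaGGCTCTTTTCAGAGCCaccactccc
Hist1h1e (chr13:23621782-23621797, - strand): ccaaaGGCTCTTTTCAGAGCCacccacaac
Hist3h2ba (chr11:58949349-58949364, + strand): ccaaaGGCTCTTTTCAGAGCCaccttccaa
Hist1h2bg (chr13:23571843-23571858, + strand): ccaaaGGCTCTTTTCAGAGCCacccatact
Hist1h3f (chr13:23544932-23544947, + strand): aaaacGGCTCTTTTAAGAGCCacctccatt
Hist1h4i (chr13:22040966-22040981, - strand): ttaaaGGCCCTTTTTAGGGCCaccacaaaa
Hist4h4 (chr6:136803998-136804013, - strand): acaaaGGCCCTTTTCAGGGCCcacaaagca
The exons on which reads were counted went on past this point by very different lengths. They held 840 further bases for Hist1h1c, 2445 for Hist4h4, 365 for Hist1h3f, 330 for Hist1h4i and 169 for Hist3h2ba, but 27 for Hist1h1e and 26 for Hist1h2bg. At least 100 such bases were present in 12 members and fewer in 24.

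Depth ranged from 2670173 to 12451234 counts per library, and the 56 members together held 54787 counts, or 0.0628% of all counts. Ypel4 was at 490 to 716 CPM, counts scaled to library size, in Ypel4+/+ Poly-E and 9.90 to 23.6 in Ypel4-/- Poly-E libraries, and at 4430 to 5441 against 175 to 224 CPM in Ortho-E, so no library went against its genotype label. Engrailed 2 (En2), of which the trap cassette holds a part, had 0 counts in the wild-type libraries and 53 and 284 in Ypel4-/- Poly-E and Ortho-E. All 12 erythroblast markers were detected in each group. Of 10 myeloid markers 8 or 9 had counts in each group, with Elane at 0 in 3 groups, and their sum was 1.95 to 5.26 CPM in the Poly-E and 4.45 to 20.8 CPM in the Ortho-E libraries. The sum of 6 macrophage markers was 0.774 to 3.64 CPM in Poly-E libraries against 4.27 to 9.29 CPM in Ortho-E libraries, and that of 5 megakaryocyte markers 26.7 to 35.6 against 90 to 113 CPM, with Gp1bb at 0 throughout. Pf4 had counts in both Poly-E groups and 0 in both Ortho-E groups, and Ppbp was at 0 in Ypel4-/- Ortho-E alone. The megakaryocyte sums in Ortho-E thus came from 3 of the 5 markers in Ypel4+/+ and 2 in Ypel4-/- libraries. The 4 T cell markers summed to at most 0.45 CPM in any library. The macrophage and megakaryocyte sums were thus higher in every Ortho-E than in any Poly-E library, the myeloid sums overlapped between the populations, and their part in the comparison of populations below was not tested. Summed B lineage markers, 7 genes, stood at 24.2 to 36.5 CPM (Ypel4+/+) and 30.8 to 52.2 CPM (Ypel4-/-) in Poly-E, and at 34.8 to 49 CPM (Ypel4+/+) and 52.7 to 75.6 CPM (Ypel4-/-) in Ortho-E. Beside the genotype comparisons below they thus did not overlap in Ortho-E, and their part in those results was not tested.

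CPM here are counts scaled by library totals after TMM normalization over the 16 libraries, which sets the bulk of genes level between libraries. This choice bears on every statement of direction between the populations. Globin transcripts held 5.36 to 6.43% of Poly-E counts and 10.7 to 13.9% of Ortho-E counts. With scaling by library totals alone, the median log2 fold change of all tested genes was -1.45 in Ypel4+/+ and -1.47 in Ypel4-/- mice, against -0.19 and -0.09 after TMM. Values between populations are therefore relative to the other genes of the same cells. Fewer transcripts per cell and fewer cells with a transcript cannot be told apart in these libraries.

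A few members held most of the counts: Hist1h1c had 13042, Hist2h2be 7364, Hist1h2bc 6115, Hist1h4i 5937 and Hist3h2ba 3986 of the 54787, which is 66.5% together. On the scale of CPM per kilobase of exon, averaged over the 16 libraries, the order was Hist1h1c (104), Hist1h2bc (97.5), Hist1h4i (75), Hist3h2ba (59.1), Hist2h2be (33.6), Hist1h1e (29.9) and Hist1h2bg (24.5). In Ypel4+/+ Poly-E cells Hist1h4i led with 84.7 ± 18.0 CPM per kilobase (SD, n = 4), followed by Hist3h2ba at 71.8 ± 13.3, Hist1h2bc at 61.5 ± 15 and Hist1h1c at 46 ± 16.5, neighbours within each other's spread. In Ypel4+/+ Ortho-E cells Hist1h1c led with 129 ± 48.4 CPM per kilobase and Hist1h2bc followed at 124 ± 16.6, with Hist1h4i at 66.8 ± 11.9 and Hist3h2ba at 41.9 ± 3.42.

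Reads that fall on more than 1 gene or map to several places were not counted, and this touched the classes unequally. All 14 H2A members overlapped exons of other annotated genes, over 27.1% to 68.2% of their exon bases, as did 2 of the H2B members and none of H1, H3 or H4. Of the 56 members, 50 shared at least one 75-base window with transcripts of another gene, and 21 shared 50% or more of their windows. Their levels are lower limits in that sense, and counting did not use strand.

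Each member was then compared between Ortho-E and Poly-E within a genotype. In Ypel4+/+ mice 54 members were tested with edgeR's quasi-likelihood test and Benjamini-Hochberg adjustment over all 11747 tested genes. Of these, 11 were higher in Ortho-E, 15 were lower and 28 did not pass the threshold of 0.05. Of all tested genes, 26.4% were called higher and 32.1% lower, so the number of histone calls was not out of the ordinary. The Ypel4-/- fit tested 55 members, of which 13 were higher, 9 lower and 33 not called, beside 29.5% and 31.5% of 11973 genes. The median log2 fold change of the members was -0.58 in Ypel4+/+ and -0.16 in Ypel4-/- mice, beside -0.19 and -0.09 for all tested genes. With scaling by library totals alone the calls became 0 higher and 39 lower in Ypel4+/+ and 1 higher and 35 lower in Ypel4-/- mice, beside 10.4% higher and 60.3% lower of all genes in Ypel4+/+ and 11.2% and 60.9% in Ypel4-/- mice on that scale. In what follows "higher" therefore means higher than the bulk of genes.

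The calls of the 2 genotypes, which shared no library, were then set side by side. Of 54 members tested in both, 11 were higher in both and 6 lower in both, none was called in opposite directions, and 23 were called in neither. Of 11431 genes tested in both, 25% were called higher in both and 28.9% lower in both, so these counts of members were not above the background. The 11 higher in both were Hist1h1c, Hist1h1d and Hist1h1e of the linker class, Hist1h2ac and Hist3h2a of H2A, Hist1h2bc, Hist1h2be, Hist1h2bp and Hist2h2be of H2B, Hist1h3i of H3 and Hist4h4 of H4. The 6 lower in both were Hist1h3a, Hist1h3f and Hist1h3g of H3 and Hist1h4d, Hist1h4f and Hist1h4n of H4. Hist1h1b and Hist1h4k were called higher in Ypel4-/- mice alone, 9 members were called lower in Ypel4+/+ mice alone and 3 in Ypel4-/- mice alone. None of these differences between genotypes passed the test of the difference itself given below.

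**Figure D1:**
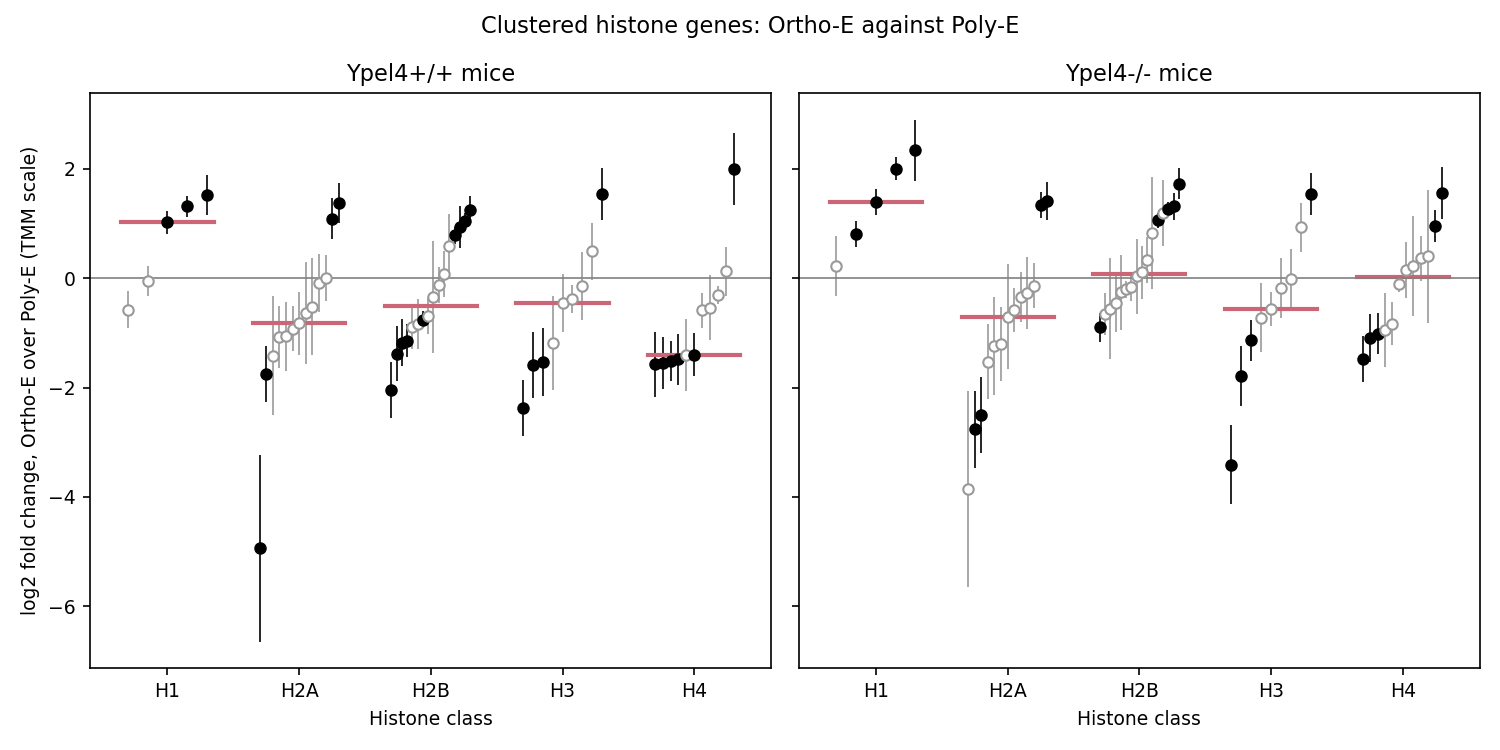
Log2 fold change of Ortho-E over Poly-E on the TMM scale for each tested clustered histone gene, by histone class, in Ypel4+/+ mice (left, 54 genes) and Ypel4-/- mice (right, 55 genes). Points are single genes with their standard error, filled where edgeR's adjusted p was at most 0.05, and red bars are class medians. The H1 median was 1.02 and 1.39, above 0 in both genotypes, while each core class had genes on both sides of 0.

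Linker histone genes were the class with the highest median. In Ypel4+/+ mice 3 of the 5 were higher in Ortho-E and none lower, with a class median of 1.02 on the log2 scale. Among Ypel4-/- libraries 4 of 5 were higher and none lower, with a median of 1.39. With library totals alone the medians were -0.26 and -0.01, above the medians of -1.45 and -1.47 for all genes on that scale.

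Hist1h1c (ENSMUSG00000036181, chr13:23738808-23740367, + strand), the most abundant linker gene, stood at 49.4, 53, 104 and 80.4 CPM in Ypel4+/+ Poly-E replicates 1 to 4. It reached 158, 120, 284 and 242 CPM in the Ypel4+/+ Ortho-E replicates. Ypel4-/- values were 62.6, 67.6, 87.6 and 106 CPM (Poly-E) and 206, 243, 367 and 357 CPM (Ortho-E). Every Ortho-E library lay above every Poly-E library in both genotypes, and replicates 3 and 4 lay above replicates 1 and 2 in each of the 4 groups. The log2 fold change was 1.52 (SE 0.37, adjusted p = 0.00987) in Ypel4+/+ and 2.00 (SE 0.21, adjusted p = 1.78e-06) in Ypel4-/- mice by edgeR. Within the 8 pairs of same-numbered libraries it ranged from 1.18 to 2.06. With library totals alone the log2 fold change was 0.23 (adjusted p = 0.591) and 0.59 (adjusted p = 0.00588), called in Ypel4-/- mice alone. On that scale the populations overlapped in both genotypes. Poly-E was at 71.6 to 156 and Ortho-E at 78.6 to 189 CPM in Ypel4+/+ mice, against 103 to 165 and 149 to 231 CPM in Ypel4-/- mice.

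Hist1h1e, the gene of another somatic H1 subtype, was at 8.98, 12.4, 9.66 and 8 CPM in the Poly-E replicates of Ypel4+/+ mice and at 24.1, 27.4, 23 and 20.3 CPM in their Ortho-E replicates. The Ypel4-/- values were 12.6, 9.52, 8.83 and 9.10 CPM (Poly-E) and 91.8, 16.7, 47.7 and 28 CPM (Ortho-E). The populations did not overlap in either genotype, but the Ypel4-/- Ortho-E libraries were far more spread than the Ypel4+/+ ones. The log2 fold change was 1.31 (SE 0.18, adjusted p = 6.89e-07) in Ypel4+/+ and 2.34 (SE 0.56, adjusted p = 0.0101) in Ypel4-/- mice. Without Ypel4-/- Ortho-E replicate 1 the latter was 1.76 (adjusted p = 9.17e-05).

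Hist1h1d was at 5.03, 6.58, 8.60 and 8.09 CPM in the Poly-E replicates of Ypel4+/+ mice and 14.4, 14.3, 18.3 and 11.2 CPM in their Ortho-E replicates, with no overlap. In the mutants they were 9.29, 6.68, 6.35 and 9.46 CPM (Poly-E) and 29.7, 14.5, 20.1 and 14.5 CPM (Ortho-E), again with no overlap. Its log2 fold change was 1.02 (SE 0.22) and 1.39 (SE 0.23), called in both, but -0.26 and -0.01 with library totals alone. Hist1h1b was at 5.75, 7.16, 7.21 and 5.04 CPM in the Poly-E replicates of Ypel4+/+ mice and 2.53, 7.42, 6.66 and 6.76 CPM in their Ortho-E replicates, which overlapped. The Ypel4-/- values were 5.94, 7.09, 5.80 and 5.92 CPM (Poly-E) and 10.8, 6.31, 14.1 and 7.91 CPM (Ortho-E), with 1 Ortho-E library inside the Poly-E range. Its log2 fold change was -0.05 (adjusted p = 0.879) in Ypel4+/+ and 0.81 (SE 0.24, adjusted p = 0.0035) in Ypel4-/- mice, and the latter was 0.54 (adjusted p = 0.0712) without Ypel4-/- Ortho-E replicate 3 and -0.60 with library totals alone. Hist1h1a was not called, at -0.57 in Ypel4+/+ and 0.22 in Ypel4-/- mice, the latter -0.44 without Ypel4-/- Ortho-E replicate 1.

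**Figure D2:**
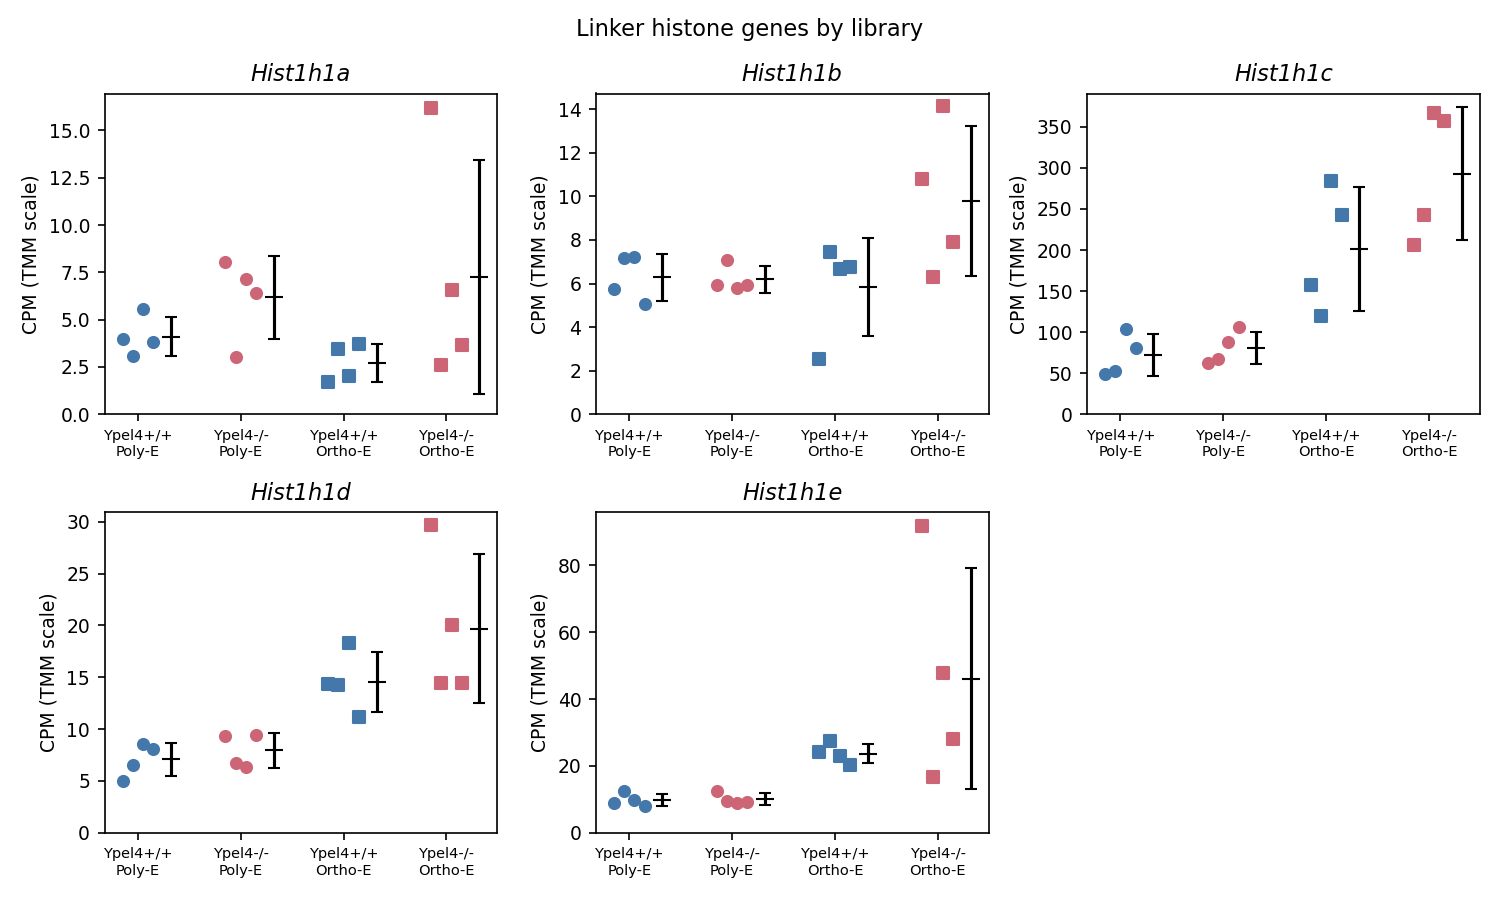
CPM on the TMM scale of the 5 linker histone genes in the 16 libraries, with 1 panel per gene, circles for Poly-E, squares for Ortho-E, blue for Ypel4+/+ and red for Ypel4-/-, and mean ± SD beside each group of 4 replicates in order. Hist1h1c, Hist1h1d and Hist1h1e lie higher in every Ortho-E library than in every Poly-E library of the genotype, while Hist1h1a and Hist1h1b overlap.

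H2B genes moved in both directions, and the direction differed between the abundant ones. In Ypel4+/+ mice 4 of 16 were higher in Ortho-E and 5 lower. Among Ypel4-/- libraries 4 were higher and 1 lower. The class medians were -0.51 and 0.07.

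Hist1h2bc was at 37.7, 37.2, 60.8 and 45.3 CPM in the Poly-E replicates of Ypel4+/+ mice and at 95.9, 77.1, 106 and 86.8 CPM in their Ortho-E replicates. Mutant values were 43.9, 54.7, 42.8 and 50.9 CPM (Poly-E) and 92.7 to 115 CPM (Ortho-E). The populations were well apart in both genotypes, with log2 fold changes of 1.04 (SE 0.15, adjusted p = 1.78e-06) and 1.26 (SE 0.13, adjusted p = 5.42e-10) by edgeR. Hist2h2be followed the same course, with 83.9, 65.4, 61.3 and 47.5 CPM in the Poly-E replicates of Ypel4+/+ mice and 117, 96.5, 119 and 99.6 CPM in their Ortho-E replicates. Its log2 fold change was 0.79 (SE 0.15) and 1.06 (SE 0.14). With library totals alone both genes had negative values, -0.24 and -0.15 for Hist1h2bc and -0.49 and -0.36 for Hist2h2be, each above the median of all genes.

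Hist3h2ba, the other abundant H2B gene, was at 33.4, 50.5, 50.4 and 42.1 CPM in the Poly-E replicates of Ypel4+/+ mice and at 27, 28, 23.7 and 24.3 CPM in their Ortho-E replicates. The Ypel4-/- values were 41.7, 52.2, 34.1 and 41.3 CPM (Poly-E) and 39.6, 31.9, 29.6 and 30.7 CPM (Ortho-E). The populations were apart in Ypel4+/+ mice and overlapped in 1 library in Ypel4-/- mice. The log2 fold change was -0.76 (SE 0.16, adjusted p = 0.000168) and -0.20 (SE 0.15, adjusted p = 0.273). The largest changes among H2B genes were those of Hist1h2be at 1.25 and Hist1h2bm at -2.04 in Ypel4+/+ mice, and of Hist1h2bp at 1.73 and Hist1h2bj at -0.90 in Ypel4-/- mice, all called. Hist1h2bp was called higher in Ypel4+/+ mice as well (0.94, adjusted p = 0.0374), a call lost without Poly-E replicate 1 or 2 or Ortho-E replicate 2 or 3. With same-numbered libraries as pairs, Hist1h2bg and Hist1h2bj in Ypel4+/+ mice were called lower (-0.86, adjusted p = 8.6e-06, and -0.68, adjusted p = 0.0304), and Hist1h2bn in Ypel4-/- mice was called higher (1.14, adjusted p = 5.4e-06), where the fit without pairs gave adjusted p of 0.0809, 0.0757 and 0.129. The paired fits between populations had 3 residual degrees of freedom and infinite prior degrees of freedom for 95.9% of genes in Ypel4+/+ and 97.2% in Ypel4-/- mice, so that their p-values hardly reflect the spread of the single gene. Without Poly-E replicate 1 the unpaired Hist1h2bg value in Ypel4+/+ mice was -0.42 (adjusted p = 0.169), and without Ortho-E replicate 1 it was -1.21 (adjusted p = 0.0192). Hist1h2bm was at 2.34, 5.23, 3.90 and 2.52 CPM in the Poly-E replicates of Ypel4+/+ mice and 0.422, 2.28, 0.666 and 0.467 CPM in their Ortho-E replicates. In Ypel4-/- Ortho-E it was at 11.2 CPM in replicate 1 but at 1.11, 0.986 and 0.772 in the others, and its change there was -0.56 (adjusted p = 0.64) with and -2.23 (adjusted p = 0.000283) without that library.

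**Figure D3:**
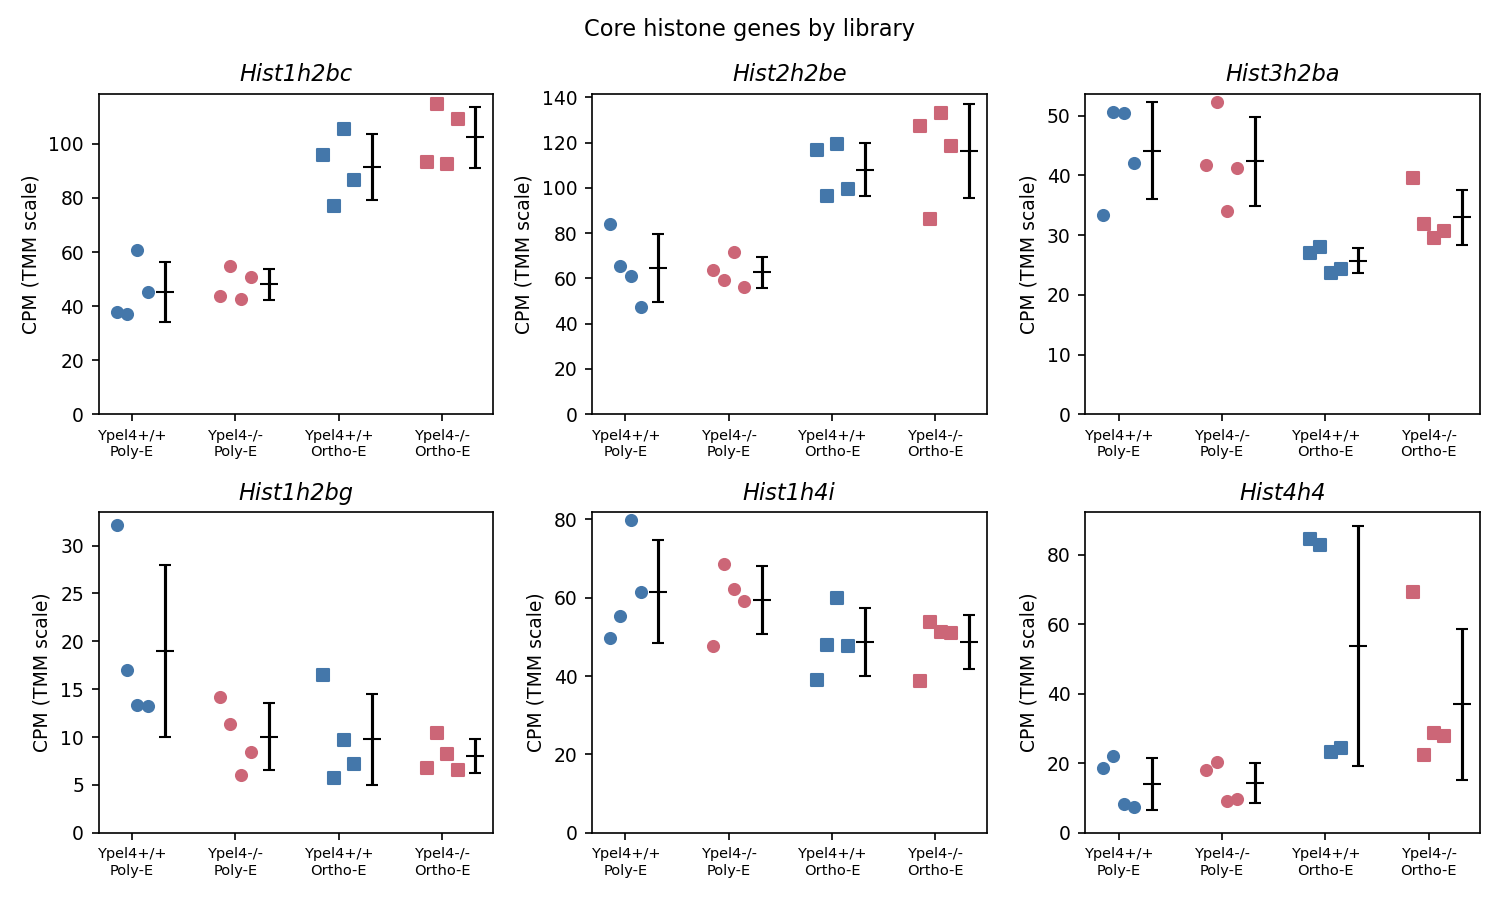
CPM on the TMM scale of 6 core histone genes in the 16 libraries, with 1 panel per gene, circles for Poly-E, squares for Ortho-E, blue for Ypel4+/+ and red for Ypel4-/-, and mean ± SD beside each group of 4 replicates in order. Hist1h2bc and Hist2h2be lie higher in Ortho-E, Hist3h2ba lies lower in Ypel4+/+ Ortho-E, and in Hist4h4 replicates 1 and 2 stand apart from 3 and 4 in all groups but Ypel4-/- Ortho-E, where replicate 1 alone does.

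H4 genes were mostly lower or not called. In Ypel4+/+ mice 1 of 11 was higher and 5 were lower, with a median of -1.40, and in Ypel4-/- mice 2 of 12 were higher and 3 lower, with a median of 0.02. Hist1h4i, with the most counts of the class, was at 49.6, 55.4, 79.8 and 61.5 CPM in the Poly-E replicates of Ypel4+/+ mice and 38.9, 48, 60 and 47.6 CPM in their Ortho-E replicates. The ranges overlapped, and the log2 fold change was -0.31 (SE 0.16, adjusted p = 0.0961). The Ypel4-/- values were 47.7, 68.6, 62.2 and 59.1 CPM (Poly-E) and 38.7, 53.8, 51.3 and 50.9 CPM (Ortho-E), a log2 fold change of -0.11 (SE 0.14, adjusted p = 0.509). With the same-numbered libraries as pairs, the Ypel4+/+ value was -0.31 with an adjusted p of 0.0111 by edgeR.

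Hist4h4, the isolated H4 gene on chromosome 6, went the other way. It was at 18.7, 22.1, 8.14 and 7.39 CPM in the Poly-E replicates of Ypel4+/+ mice and at 84.5, 82.8, 23.3 and 24.5 CPM in their Ortho-E replicates. The Ypel4-/- values were 18.0, 20.5, 9.11 and 9.67 CPM (Poly-E) and 69.3, 22.3, 28.6 and 27.8 CPM (Ortho-E). Replicates 1 and 2 were higher than replicates 3 and 4 in 3 of the groups, opposite to Hist1h1c, and only replicate 1 was in the fourth. The log2 fold change was 1.99 (SE 0.66, adjusted p = 0.0389) in Ypel4+/+ and 1.56 (SE 0.48, adjusted p = 0.0271) in Ypel4-/- mice. Leaving out Ypel4+/+ Ortho-E replicate 1 or 2 or Poly-E replicate 3 or 4 put the Ypel4+/+ adjusted p at 0.0988, 0.0887, 0.083 and 0.0803, and leaving out Ypel4-/- Poly-E replicate 3 or 4 put the Ypel4-/- one at 0.0606 and 0.0676. Hist1h4d and Hist1h4f were lower in both genotypes, at -1.52 and -1.49 in Ypel4+/+ and at -1.09 and -1.47 in Ypel4-/- mice. The Hist1h4d call in Ypel4-/- mice (adjusted p = 0.0431) was lost without any of 5 libraries, Poly-E replicate 1, 2 or 4 or Ortho-E replicate 2 or 4, with adjusted p from 0.0602 to 0.163. Without Ypel4+/+ Ortho-E replicate 4, Hist1h4f was at -1.06 (adjusted p = 0.0661). Hist2h4 had the lowest value of the class in Ypel4+/+ mice, -1.57 (adjusted p = 0.0375), which was not called without any one of 5 of the 8 libraries, and was at 0.22 (adjusted p = 0.853) in Ypel4-/- mice.

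Hist1h4k was at 5.03, 8.13, 5.36 and 4.26 CPM in the Poly-E replicates of Ypel4+/+ mice and at 2.11, 4, 5 and 3.27 CPM in their Ortho-E replicates, but at 6.55, 4.05, 3.45 and 3.45 CPM in the Poly-E replicates of Ypel4-/- mice and 13.5, 4.82, 5.59 and 6.95 CPM in their Ortho-E replicates. It was thus lower in Ortho-E for each Ypel4+/+ number and higher for each Ypel4-/- number. The log2 fold change was -0.59 (adjusted p = 0.114) and 0.96 (adjusted p = 0.00631), the latter 0.60 (adjusted p = 0.0783) without Ypel4-/- Ortho-E replicate 1. The interaction was 1.42 (SE 0.44, unadjusted p = 0.00255, adjusted p = 1.00 by edgeR). Transcripts of other genes shared 68.1% of its windows.

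H3 genes included the largest decreases with counts in both populations. In each genotype 1 of 9 was higher and 3 were lower, with medians of -0.45 and -0.57. Hist1h3a was at 5.39, 3.68, 2.65 and 4 CPM in the Poly-E replicates of Ypel4+/+ mice and at 0, 1.71, 0.666 and 0.700 CPM in their Ortho-E replicates, with no overlap. Its log2 fold change was -2.37 (SE 0.52, adjusted p = 0.000271) and -1.14 (SE 0.38, adjusted p = 0.0102). The Ypel4-/- call was lost without Ortho-E replicate 2 or 4, with adjusted p of 0.0531 and 0.0819. Hist1h3f had 72 counts in Ypel4-/- Poly-E and 2 in Ypel4-/- Ortho-E, a ratio of 0.0807 (95% exact interval 0.00959 to 0.302, counting error only). Its log2 fold change was -1.53 (SE 0.62, adjusted p = 0.0377) in Ypel4+/+ mice, a call lost without any one of 6 of the 8 libraries, while without Ortho-E replicate 3 it was -2.83 (adjusted p = 0.0044). Hist1h3i was the one H3 gene that was higher, at 1.55 (SE 0.48, adjusted p = 0.00909) and 1.54 (SE 0.39, adjusted p = 0.00117), with 78.3% of its windows shared with other genes. Its Ypel4+/+ Ortho-E values were 9.29, 6.85, 4.33 and 0.933 CPM, of which the last lay below the Poly-E range of 1.39 to 2.34, and the call was lost without replicate 1 (1.08, adjusted p = 0.0693). Hist1h3c, the H3 member with the highest level per kilobase, was at -0.38 (adjusted p = 0.224) and -0.57 (adjusted p = 0.113). With same-numbered libraries as pairs in Ypel4-/- mice it was called lower (-0.58, adjusted p = 0.0402) and Hist1h3d higher (0.88, adjusted p = 0.0363, against 0.0696 without pairs), which made 2 higher and 4 lower H3 members there.

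H2A genes were read at a disadvantage, as each overlapped another annotated gene. In each genotype 2 of 13 were higher and 2 lower, with medians of -0.82 and -0.71. Hist1h2ac was at 0.719, 1.35, 3.57 and 2.44 CPM in the Poly-E replicates of Ypel4+/+ mice and at 4.65, 4.57, 8 and 5.36 CPM in their Ortho-E replicates, above each Poly-E library, while 1 of the Ypel4-/- Ortho-E libraries, at 3.15 CPM, lay within the Poly-E range. Its log2 fold change was 1.37 (SE 0.37, adjusted p = 0.0024) and 1.41 (SE 0.34, adjusted p = 0.000681). Hist1h2af had 21 and 10 counts in Ypel4+/+ and Ypel4-/- Poly-E and 0 in both Ortho-E groups, so that it was at least 2.14-fold and 1.15-fold lower with 3 counts over the group taken as the floor. Its adjusted p was 0.0162 in Ypel4+/+ mice, or 0.0557 without Ypel4+/+ Ortho-E replicate 4, and 0.063 in Ypel4-/- mice. With it at its bound the class median in Ypel4-/- mice was -0.58. Hist1h2ak was at -1.75 (SE 0.51, adjusted p = 0.00487) in Ypel4+/+ mice and at -0.28 (adjusted p = 0.744) in Ypel4-/- mice, where it was -1.54 (adjusted p = 0.00903) without Ortho-E replicate 1. Hist1h2ab was not called, at -0.92 (adjusted p = 0.0605) and -0.58 (adjusted p = 0.221). In Ypel4+/+ mice the former was -1.13 (adjusted p = 0.043) without Ortho-E replicate 1, and -0.89 (adjusted p = 0.0477) with the same-numbered libraries as pairs.

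Members were then grouped by the counted exon after the stem-loop. Of the 12 members with at least 100 counted bases after it, 5 were higher and 3 lower in Ypel4+/+ and 5 higher and 1 lower in Ypel4-/- mice, with medians of -0.38 and 0.19. Of the 24 with fewer, 3 were higher and 8 lower among 23 tested in Ypel4+/+ mice and 3 higher and 7 lower in Ypel4-/- mice, with medians of -0.89 and -0.57. Of the 20 without a match, 19 were tested, with 3 higher and 4 lower in Ypel4+/+ and 5 higher and 1 lower in Ypel4-/- mice. Their medians were -0.57 and 0.04. The 5 with a long exon that were higher were Hist1h1c, Hist3h2a, Hist1h2be, Hist1h2bp and Hist4h4 in both genotypes. Of all tested genes, 26.4% were called higher and 32.1% lower in Ypel4+/+ mice, and 29.5% and 31.5% in Ypel4-/- mice. With library totals alone, the 12 had 0 higher and 7 lower in Ypel4+/+ mice and 1 and 6 in Ypel4-/- mice. On that scale the 24 had 0 higher and 19 lower in each genotype, and those without a match 0 higher and 13 and 10 lower. The difference between these groups was not tested, and the 12 members also had more counts, with a median of 566 against 287. Hist1h4i, Hist3h2ba and Hist1h3f, with 330, 169 and 365 bases, were not among the higher ones.

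**Figure D4:**
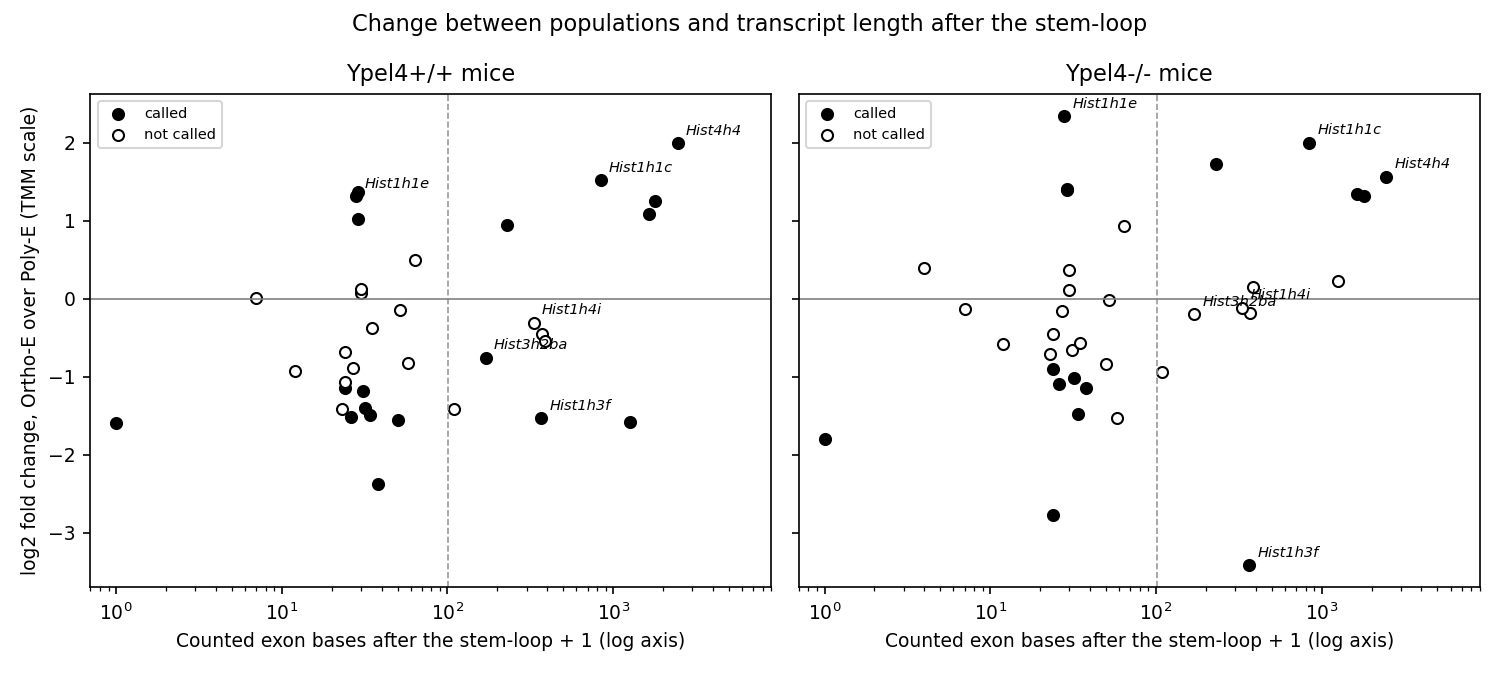
Log2 fold change of Ortho-E over Poly-E on the TMM scale against the number of counted exon bases after the stem-loop, plus 1, on a log axis, for members with a stem-loop in Ypel4+/+ (left) and Ypel4-/- mice (right). Points are single genes, filled where called by edgeR, and the dashed line marks 100 bases. To its right 5 genes are called higher in each genotype and 3 and 1 lower, to its left 3 are higher and 8 and 7 lower. Of all tested genes, 26.4% and 29.5% were called higher and 32.1% and 31.5% lower.

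The linker and core genes were then summed in each library, as a description without a test. Linker genes summed to 99.0 ± 27.8 CPM (SD, n = 4) in the Ypel4+/+ Poly-E libraries and 248 ± 74.7 in Ypel4+/+ Ortho-E, a log2 ratio of 1.32. Ypel4-/- sums were 111 ± 19.4 in Poly-E and 376 ± 74.4 in Ortho-E, a log2 ratio of 1.76. The same-numbered libraries had log2 ratios from 1.07 to 1.97, each above 0. Most of the linker sum was Hist1h1c, with 13042 of 16762 linker counts. The mean of the linker members' own log2 ratios was 0.59 and 1.10, and without Hist1h1c the ratio of sums was 0.78 and 1.45. Core genes summed to 367 ± 38.2 CPM in Ypel4+/+ Poly-E and 431 ± 42.7 in Ypel4+/+ Ortho-E, a log2 ratio of 0.23. Ypel4-/- core sums were 366 ± 34.2 and 473 ± 76.0, a log2 ratio of 0.37. The core sums rested on a few genes. The mean of the members' own log2 ratios was -0.44 and -0.33, opposite in sign to the ratio of sums. Without Hist2h2be, Hist1h2bc, Hist1h4i and Hist3h2ba, the core genes among the 5 members of most counts, the core ratio was 0.056 and 0.17. That sum still held Hist4h4, the core gene of next most counts. Its mean was 14.1 CPM in Poly-E and 53.8 in Ortho-E of Ypel4+/+ mice, and 14.3 and 37.0 in Ypel4-/- mice. What Hist4h4 added to that ratio was not tested. With library totals alone the linker ratios were 0.078 and 0.50 and the core ratios -1.01 and -0.87.

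The share of linker genes among the counts of all 56 members does not depend on the scaling. It was 21.2 ± 4.85% (SD, n = 4) in the Ypel4+/+ Poly-E libraries and 36.1 ± 8.18% in Ypel4+/+ Ortho-E, with ranges of 16.7 to 25.6% and 27.9 to 43.6%. In Ypel4-/- mice it was 23.4 ± 4.65% and 44.2 ± 5.39%, with ranges of 19.0 to 28.9% and 38.0 to 48.7%. The populations did not overlap in either genotype, and the genotypes overlapped in both populations. Without Hist1h1c, the other 4 linker genes held 6.92 ± 0.58% of the remaining counts in Poly-E and 9.82 ± 0.91% in Ortho-E of Ypel4+/+ mice, and 7.68 ± 1.07% and 14.0 ± 5.08% in those of Ypel4-/- mice, again without overlap of the populations. H2B genes held 45.5 ± 3.83% in Ypel4+/+ Poly-E and 39.7 ± 2.26% in Ypel4+/+ Ortho-E, and H4 genes 23.5 ± 2.06% and 17.7 ± 5.98%. The H2A share in the same groups was 5.03 ± 1.11% and 3.88 ± 0.85%, and the H3 share 4.75 ± 1.24% and 2.58 ± 0.93%. For Ypel4-/- mice, from Poly-E to Ortho-E, the share was 43.0 ± 2.30% and 36.7 ± 2.37% for H2B and 23.2 ± 2.39% and 13.5 ± 2.91% for H4. It was 5.29 ± 0.83% and 3.26 ± 0.13% for H2A, and 5.13 ± 1.01% and 2.38 ± 1.07% for H3. As shares of 1 total, they are not independent of the linker share.

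**Figure D5:**
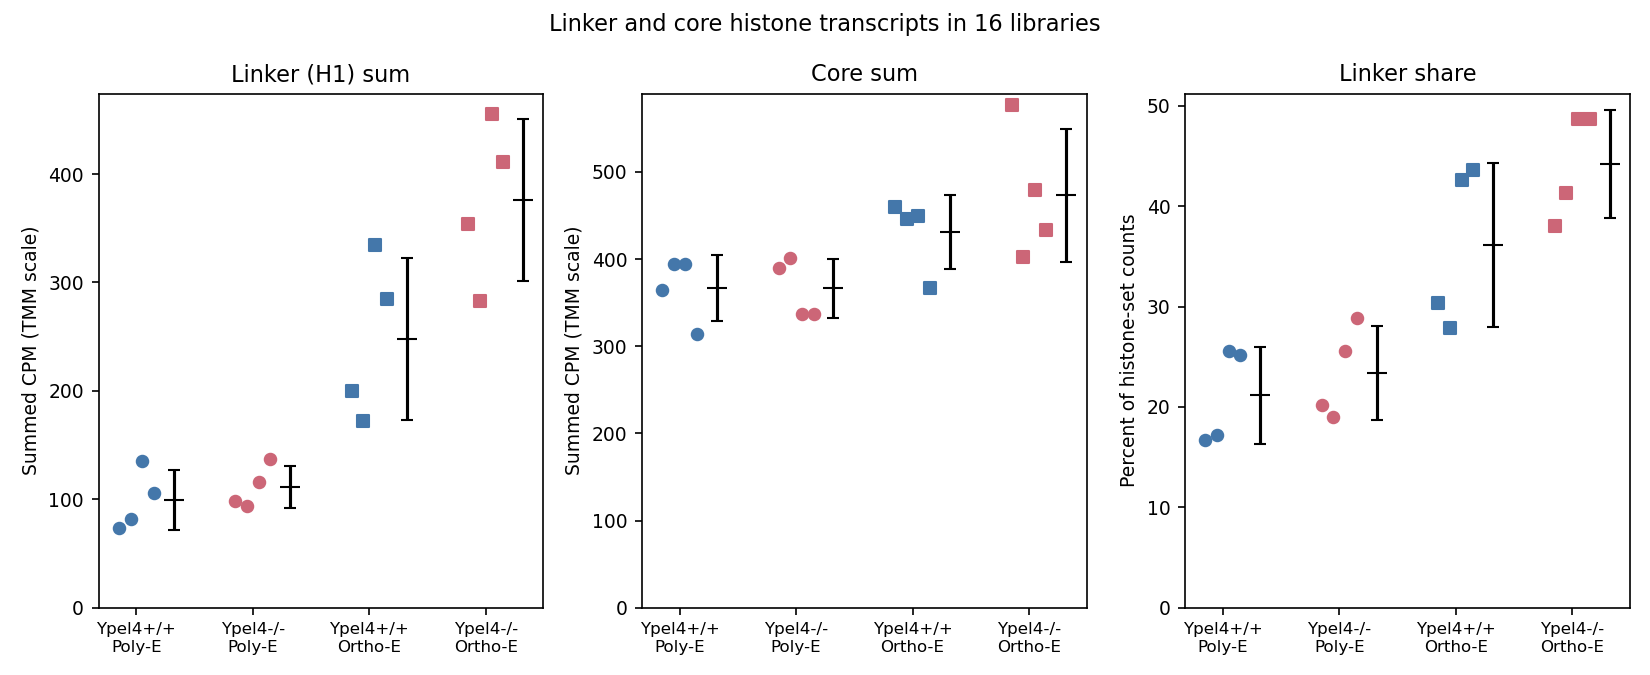
Summed CPM on the TMM scale of the linker genes (left) and core genes (middle) and the percentage of histone-set counts on linker genes (right) in the 16 libraries, with circles for Poly-E, squares for Ortho-E, blue for Ypel4+/+ and red for Ypel4-/-, and mean ± SD beside each group of 4. The linker share lies at 16.7 to 28.9% in the 8 Poly-E libraries for Ypel4+/+ and Ypel4-/- mice together and at 27.9 to 48.7% in the 8 Ortho-E libraries.

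Loss of Ypel4 was examined next, in each population. In Poly-E cells none of 55 tested members was called by edgeR, beside 0.00807% of 12395 genes. In Ortho-E cells none of 50 was called, beside 0.0285% of 10521 genes. At an unadjusted p below 0.05 there were 3 members in Poly-E, beside 2.19% of all tested genes, against 7 in Ortho-E, beside 3.68%, and DESeq2 called 0 in both. Groups that did not overlap were found for 0 members in Poly-E, beside 2.09% of all tested genes, and for 1 in Ortho-E, Hist3h2ba, beside 2.35%. Hist3h2ba was at 23.7 to 28 CPM in Ypel4+/+ and 29.6 to 39.6 CPM in Ypel4-/- Ortho-E, a log2 difference of 0.38 (SE 0.17, adjusted p = 0.995). The median log2 difference of Ypel4-/- over Ypel4+/+ was 0.10 for the Poly-E and 0.36 for the Ortho-E values of the members, beside 0.00 for all tested genes in each. Ypel4-/- Ortho-E replicate 1 stood far above its group for several members, as for Hist1h2bn (21.1 CPM against 3.71, 9.21 and 5.02) and Hist2h4 (15.7 against 1.11, 5.26 and 3.47). For others, such as Hist1h1c and Hist1h4i, it was the lowest of the group. The part of this library in the Ortho-E median was not tested. The linker sums had a log2 ratio of 0.17 in Poly-E cells against 0.60 in Ortho-E cells, and the core sums one of -0.0014 and 0.13. The linker sums were 172 to 334 CPM in Ypel4+/+ and 283 to 455 CPM in Ypel4-/- Ortho-E libraries, which overlapped.

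Hist1h2bg, an H2B gene, was the member called between genotypes in Poly-E when libraries of the same number were taken as pairs. Such pairs were uncertain, as the same number gave the best correlation over all genes compared for 1 of 4 Ypel4+/+ Poly-E libraries. In Poly-E it was at 32.2, 17, 13.4 and 13.2 CPM in Ypel4+/+ replicates 1 to 4 and at 14.2, 11.3, 6.07 and 8.49 CPM in Ypel4-/- replicates 1 to 4. The ranges overlapped in the library at 14.2 CPM, but the Ypel4-/- library was the lower one in 4 of 4 pairs. The log2 difference was -0.90 (SE 0.35, unadjusted p = 0.0318, adjusted p = 1.00) without and -0.88 (SE 0.14, adjusted p = 0.00278) with the replicate block by edgeR, where 0.0323% of all tested genes were called and the prior degrees of freedom of this gene were 28.9, against 2.86 without the block. A two-sided exact permutation test of log2 CPM gave p = 0.0857 over 70 splits (adjusted over 2 genes 0.143), and the paired exact test gave 0.125, the smallest that 4 pairs allow. The 2 genes were Hist1h2bg and Hist1h1c, chosen because fits with the block called them in these same libraries. The adjustment does not cover that choice. In Ortho-E it was at 16.5, 5.71, 9.66 and 7.23 CPM in Ypel4+/+ and 6.75, 10.4, 8.22 and 6.56 in Ypel4-/- libraries, a log2 difference of -0.29 (SE 0.30), with overlap throughout. Other genes' transcripts shared 47.4% of its windows.

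The linker genes had log2 differences of Ypel4-/- over Ypel4+/+ from 0.43 to 1.31 in Ortho-E, all positive and none called. For Hist1h1c the Ortho-E difference was 0.55 (SE 0.31, adjusted p = 0.995). The ranges overlapped, at 120 to 284 CPM in Ypel4+/+ and 206 to 367 CPM in Ypel4-/- libraries. The two-sided exact permutation test gave p = 0.143 (adjusted over 2 genes 0.143). For Hist1h1e it was 0.97 (SE 0.57, adjusted p = 0.995), and for Hist1h1a 1.31 (SE 0.57, adjusted p = 0.995). Without Ypel4-/- Ortho-E replicate 1 the Hist1h1a difference was 0.61, that of Hist1h1e 0.39 and that of Hist1h1d 0.16 in place of 0.43. In Poly-E the linker differences lay between -0.03 and 0.57. In Ortho-E the replicate numbers gave no pairing between the genotypes. A fit with them as a block called 0.124% of genes and 1 member, Hist1h1c, and is for that reason given with the alternatives.

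Whether the change between populations differed between genotypes was asked of 56 members by the interaction. None was called by edgeR, beside 0% of 13318 genes, and none by DESeq2, with 2 members at an unadjusted p below 0.05, beside 2.73% of all genes. The linker genes had interaction values from 0.26 to 0.89, all positive, with a median of 0.69, and the core genes a median of 0.15, beside 0.02 for all genes. Without Ypel4-/- Ortho-E replicate 1 the interaction was 0.048 for Hist1h1a, 0.020 for Hist1h1d and 0.35 for Hist1h1e. For Hist1h1b, the other member under 0.05, it was 0.75 (SE 0.36, unadjusted p = 0.046, adjusted p = 1.00).

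The genes around histone supply in the cell cycle were read in the same fits. Of 28 DNA replication genes, all 28 were lower in Ortho-E in both genotypes, with medians of -2.03 and -1.97. They ranged from -2.85 (Gins2, of the replicative helicase) to -1.60 (Rpa3, of a protein that coats single-stranded DNA) in Ypel4+/+ mice, and from -2.37 (Gins2) to -1.57 (Gins1) in Ypel4-/- mice. Of 18 histone chaperone genes, 16 were lower and none higher in each genotype, with medians of -1.79 and -1.67. Chaf1a, of the complex that loads histones behind the fork, was at -2.37 in Ypel4+/+ mice, Asf1b, which carries H3 and H4, at -2.26 in Ypel4-/- mice, and Daxx, which serves replication-independent H3, was not called at -0.25 and -0.05. Of 16 genes of histone mRNA 3′ end processing and decay, 12 were lower and none higher in Ypel4+/+ mice and 13 lower and 2 higher in Ypel4-/- mice, with medians of -1.67 and -1.63. Cstf2, of the cleavage complex, was at -2.44 in Ypel4+/+ mice. Lsm11, of the histone-specific U7 particle, had 2 counts in Ypel4-/- Ortho-E and 71 in Ypel4-/- Poly-E, a ratio of 0.0819 (95% exact interval 0.00973 to 0.307). Srrt, a partner of the cap-binding complex, was at 0.13 (adjusted p = 0.409) and 0.39 (adjusted p = 0.00991), but at -1.15 and -1.03 with library totals alone.

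Of 10 tested replication-independent histone genes, 1 was higher and 5 lower in Ypel4+/+ mice and 2 were higher and 4 lower in Ypel4-/- mice. The median was -1.21 in Ypel4+/+ mice, or -0.85 with H1fx at its bound, and -0.93 in Ypel4-/- mice. H2afj, an H2A variant gene, had the highest value, 0.35 (adjusted p = 0.0457) and 0.61 (adjusted p = 0.00229), or -0.94 and -0.79 with library totals alone. H1fx, a linker variant gene, had 16 counts in Ypel4+/+ Poly-E and 0 in Ypel4+/+ Ortho-E, at least 1.63-fold lower, and 16 against 1 in Ypel4-/- mice, a ratio of 0.182 (95% exact interval 0.00433 to 1.17). None of the genes in these 4 lists was called between genotypes in either population or in the interaction. Beside the replication genes, all lower by at least 1.57 on the log2 scale, the linker members Hist1h1c, Hist1h1d and Hist1h1e were higher by 1.02 to 2.34. Of the other linker members, Hist1h1a was not called, at -0.57 in Ypel4+/+ and 0.22 in Ypel4-/- mice, and Hist1h1b was called higher in Ypel4-/- mice alone. With library totals alone the linker medians were -0.26 and -0.01.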

How the data were processed

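RNA of sorted Poly-E and Ortho-E cells was sequenced from poly(A)-selecting libraries. The authors ran nf-core/rnaseq on GRCm38. What they deposited are counts, whole read pairs assigned to each gene by featureCounts 1.6.4, on exons, without strand, and without multi-mapping or multi-overlapping reads. Groups and replicate numbers came from the titles. The members and the lists of other genes were chosen with earlier results of these data known.

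Each fit kept genes reaching 10 counts in its libraries, tested in R 4.3.3 with edgeR 4.0.16 (quasi-likelihood, robust, TMM), adjusted by Benjamini-Hochberg (called at 0.05 or below), on 8 libraries per comparison and 16 for the interaction. Libraries were not stated to come from separate mice, so p-values measure the spread between them. The test was tried on simulated counts, where the share of false calls was above the threshold in each of the 4 comparisons simulated, so calls near the threshold are less certain than their adjusted p. DESeq2 1.42.0, other scalings, filters and fits served as alternatives, and a term for replicates 1 and 2 against 3 and 4 and 3 checks of the sums were added after seeing the data. Depth ranged from 2670173 to 12451234 counts, and intervals and floors cover counting error only.

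Named genes were all linker members, the 3 core members of each class with the highest level per kilobase, the lowest and highest member of each class between populations, members called between genotypes with or without the block, Hist1h2bg, the members nearest the minimum, and the lowest, highest and called genes of each list. Hist3h2a, Hist1h4m and others named outside this rule were chosen after their values were seen. Stem-loops were read from GENCODE M21 transcripts, which matched 54 of 56 members.

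To see if replicate numbers pair libraries, deviations of 7852 genes around their group means were correlated. The correlation was 0.16 to 0.446 between genotypes in Poly-E and 0.212 to 0.361 between populations in Ypel4+/+ mice, each over 0.1. The correlation was -0.0481 to 0.169 between genotypes in Ortho-E, not paired, and 0.0569 to 0.308 between populations in Ypel4-/- mice, whose deposited names share a further number read as the mouse.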

Additional observations from a re-analysis of the deposited data

Results flagged for a closer look

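Of 136 groups of 4 libraries examined, for 28 named members and 6 class sums in each of the 4 groups, 9 held a library apart from the other 3 by Dixon's criterion, and chance alone flags about 1 group in 20. In Ypel4-/- Ortho-E, replicate 1 was highest for Hist1h2bm, at 11.2 CPM with the next at 1.11, and for Hist4h4, at 69.3 CPM with the next at 28.6. In Ypel4+/+ Ortho-E, replicate 2 was highest for Hist1h2bm at 2.28 CPM, replicate 1 was lowest for Hist1h1b at 2.53 CPM, and replicate 4 had the lowest core sum at 367 CPM, with the next at 447. In Ypel4-/- Poly-E, replicate 2 was highest for Hist1h1b at 7.09 CPM and for Hist1h3f at 3.04 CPM. For Hist2h2ab, with 12 counts in all, replicate 2 of Ypel4+/+ Poly-E stood at 0.194 CPM and replicate 4 of Ypel4-/- Poly-E at 0.154 CPM, where the other libraries were at 0.

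Hist1h4k moved in opposite directions in the 2 genotypes: its mean log2 ratio of Ortho-E over Poly-E was -0.61 in Ypel4+/+ mice, below 0 for each of 4 numbers, and 0.69 in Ypel4-/- mice, above 0 for each of 4, a difference of 1.30. This comparison by number was not tested, and the interaction did not pass the threshold.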

How the results depend on the processing

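The calls of clustered histone genes between populations were 20 to 30 in Ypel4+/+ and 19 to 27 in Ypel4-/- mice under every alternative but library totals without TMM, which gave 39 and 36. Leaving out 1 library at a time gave 20 to 24 and 19 to 26 calls. Between genotypes and for the interaction there were 0 calls under each alternative, each library left out included, except with the replicate block (1 in Poly-E, Hist1h2bg, and 1 in Ortho-E, Hist1h1c) and, in Ortho-E, with the term for replicates 1 and 2 against 3 and 4 (1, Hist1h1c). In Ortho-E these numbers gave no pairing between genotypes, and in Poly-E the pairing was uncertain. Between populations the block gave 30 and 25 calls in all, and by class it moved 1 count by over 1.5 times, the higher H3 members in Ypel4-/- mice, from 1 to 2. With the block the median prior degrees of freedom between genotypes were 28.9 in Poly-E and 1522 in Ortho-E, against 12.2 and 23.3 without it.

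Linker sums had log2 ratios between populations of 1.15 to 1.51 and 1.65 to 1.87 without 1 library, 0.078 and 0.50 with library totals, 0.59 and 1.10 as the mean of the members' ratios, and 0.78 and 1.45 without Hist1h1c. Core sums gave 0.16 to 0.30 and 0.26 to 0.44 without 1 library, 0.42 and 0.58 with DESeq2's size factors, and -1.01 and -0.87 with library totals. They gave -0.44 and -0.33 as the mean of members' ratios. Without the core genes among the 5 members of most counts, Hist4h4 being kept, they gave 0.056 and 0.17. Between genotypes, leaving out 1 library gave 0.05 to 0.36 and 0.46 to 0.78 for linker and -0.07 to 0.04 and 0.03 to 0.20 for core sums in Poly-E and Ortho-E.

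Library totals turned the sign in Ypel4+/+ mice for Hist1h1d (-0.26), Hist1h2bc (-0.24), Hist2h2be (-0.49), Hist1h2be (-0.027) and Hist1h2bp (-0.33), and in Ypel4-/- mice for Hist1h1a (-1.17), Hist1h1b (-0.60), Hist1h1d (-0.0074), Hist1h2bc (-0.15), Hist2h2be (-0.36), Hist1h4k (-0.45), Hist1h2be (-0.10) and Hist2h4 (-1.20). Hist1h1b in Ypel4+/+ mice was 0.069 with DESeq2, 0.072 with its size factors and 0.12 with filterByExpr, Hist1h4i in Ypel4-/- mice was 0.026 with filterByExpr, and Hist1h1b between genotypes in Poly-E was 0.018 with library totals, none of them called. Apart from library totals, changes of sign in named genes came only in those not called. Leaving out 1 library at a time turned the sign of 8 values, with ranges in Ypel4-/- mice between populations of -0.44 to 0.50 for Hist1h1a, -1.54 to 0.25 for Hist1h2ak, -0.60 to 0.80 for Hist2h4 and -0.33 to 0.039 for Hist1h2bg, in Ypel4+/+ mice of -0.14 to 0.18 for Hist1h1b, and between genotypes of -0.13 to 0.055 for Hist1h1b and -0.086 to 0.17 for Hist1h1e in Poly-E and of -0.49 to 0.064 for Hist1h2bg in Ortho-E.

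Depth limits these results most in Ypel4+/+ Ortho-E, where all 56 members together had 1084 to 2794 counts a library.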

Other observations

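Hist1h4m, an H4 gene of the Hist1 cluster, had 32 counts in all. It was at 1.22 and 2.23 CPM in Ypel4-/- Poly-E replicates 1 and 2 and at 0 and 0.0514 CPM in replicates 3 and 4, while Ypel4+/+ Poly-E libraries were at 0, 0, 0.0662 and 0 CPM. In Ortho-E, Ypel4-/- replicates 1 and 2 were at 1.35 and 1.48 CPM and replicates 3 and 4 at 0 and 0.579, and the Ypel4+/+ libraries at 0.422, 0, 0 and 0. Transcripts of other genes shared 89.0% of its windows. By edgeR the genotypes had an adjusted p of 1.00 (Poly-E) and 0.995 (Ortho-E).

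H1f0, the replication-independent linker gene of differentiating cells, was not called between populations. Its mean level in Ypel4+/+ mice was 16.7 ± 6.85 CPM (SD, n = 4, Poly-E) and 7.65 ± 6.20 CPM (Ortho-E), a log2 fold change of -0.99 (SE 0.59, adjusted p = 0.195 by edgeR), and at 15.4 ± 6.93 and 8.08 ± 5.92 CPM in Ypel4-/- mice, at -0.73 (SE 0.54, adjusted p = 0.29). Slbp, whose protein binds the stem-loop, fell from 400 ± 26.9 to 107 ± 6.72 CPM in Ypel4+/+ mice, a log2 fold change of -1.87 (SE 0.12, adjusted p = 3.11e-13). Both genes were chosen after their values were seen.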
